A study of Oryza sativa with 6 samples.

Results

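Leucine breakdown was followed through 4 rice genes on microarrays of infested and un-infested stem tissue: LOC_Os12g08260 and LOC_Os07g07470, which are assigned to the branched-chain keto acid dehydrogenase, IVD (LOC_Os05g03480), which encodes isovaleryl-CoA dehydrogenase, and MCCA (LOC_Os12g41250), which encodes the alpha subunit of methylcrotonoyl-CoA carboxylase. IVD and MCCA were found by symbol among the names of annotated rice genes. The dehydrogenase loci were found through the probe sets that the study's sheets of amino acid metabolism give for them. The 4 genes hold 5 of the 57381 probe sets of the array and are 4 of the 17905 genes that a probe set names alone. IVD has 2 probe sets and the other genes have 1 each. IVD lies on chromosome 5, LOC_Os07g07470 on chromosome 7, and LOC_Os12g08260 and MCCA on chromosome 12.

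The infested samples (RP-I) came from the indica rice line RP, which carries the resistance gene gm3, at the feeding site of maggots of gall midge biotype GMB1. The un-infested samples (RP-UI) were the matching stem region of plants of the same line that no midge had reached. At an age of 15 days, plants of the RP-I trays received 25 female and 10 male midges, and trays of both groups went into a humid chamber 48 h later. From a stem 1 cm was cut at 24, 48 and 72 hours after infestation (hai). By the study's methods, 24 hai was the time at which maggots were found to be established, not 24 h after midge release. The material of the 3 times was joined before hybridisation, so each array gives 1 value over the 3 times. Each group has 3 arrays, 1 for each tray, and the labels call the trays independent biological replicates. Setting RP-I against RP-UI asks which transcripts differ at the feeding site of a resistant host.

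Plants break leucine down in the mitochondrion. An aminotransferase first removes the amino group, and the branched-chain keto acid dehydrogenase complex, made of an E1 enzyme with alpha and beta subunits, an E2 and an E3, then turns the keto acid into isovaleryl-CoA. IVD oxidises isovaleryl-CoA and hands the electrons to the electron transfer flavoprotein (ETF) and its ubiquinone oxidoreductase (ETF-QO), methylcrotonoyl-CoA carboxylase adds a carboxyl group to the product, and the last steps give acetyl-CoA and acetoacetate. Valine and isoleucine share the first steps. In Arabidopsis this route is known for feeding electrons to respiration when sugar is short, in the dark or in ageing leaves.

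The product names are not uniform. The study's sheet bins LOC_Os12g08260 with shared branched-chain degradation and gives it the activity term of 3-methyl-2-oxobutanoate dehydrogenase, which is the branched-chain E1 reaction, but its product name reads pyruvate dehydrogenase E1 component, alpha subunit. LOC_Os07g07470 is named 3-methyl-2-oxobutanoate dehydrogenase with no subunit. MCCA and IVD are named for their own reactions and are binned with leucine degradation.

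Values are log2 signals from robust multichip average (RMA) processing, so a difference of 1 is a 2-fold change. A signal depends on its own probes, so differences between the groups were read within a probe set. Brighter and dimmer only tell apart probe sets of 1 gene. All 5 probe sets passed a filter that kept 51532 probe sets whose mean signal reached the 10th percentile. The study listed the 4 genes for a difference between these same 6 arrays by a 2-fold change and p of at most 0.05 before adjustment. Their differences between RP-I and RP-UI are therefore given as a description with no test. In whole tissue, fewer cells of a type and less RNA per cell cannot be told apart.

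The arrays numbered 3 differed from the others of their group, RP-I 3 the most. RP-I 3 correlated more closely with RP-UI 3 (r = 0.968 over the probe sets kept) than with RP-I 1 (0.961) or RP-I 2 (0.954), while RP-I 1 and RP-I 2 reached 0.990. RP-UI 3 was closest to RP-UI 1 (0.973) and less close to RP-UI 2 (0.957), and those arrays reached 0.981 with each other. RP-I 1 also came close to RP-UI 1 (0.978). Array medians lay between 5.45 and 5.49 in RP-I and between 5.44 and 5.46 in RP-UI, as quantile normalization makes them. The median over the array maker's control probe sets was 7.46, 7.48 and 8.11 in RP-I 1, 2 and 3 and 7.37, 7.30 and 7.52 in RP-UI 1, 2 and 3. Each difference of the 4 genes is also given without both arrays numbered 3, a setting chosen after seeing the data, and that of another gene where it turns the direction, changes the call or moves by more than 1.5 times.

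Each of the 4 genes had a higher mean in RP-I than in RP-UI, by 1.41 to 2.78 on the log2 scale, and in both groups the array numbered 3 was the highest. Among the 5 probe sets, 4 had each RP-I array above each RP-UI array, against 9.12% of all probe sets kept. The second IVD probe set did not. At an adjusted p under 0.05 in limma's fit, 0 of the 5 were called higher, against 0.235% of all probe sets kept (0.563% were called in either direction). With the replicate number as a block, 5 of the 5 were called higher, against 4.06%. At the study's own thresholds 4 of the 5 were higher, against 2.66%. These shares are printed for scale only, because the genes were chosen on this contrast.

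**Figure D1:**
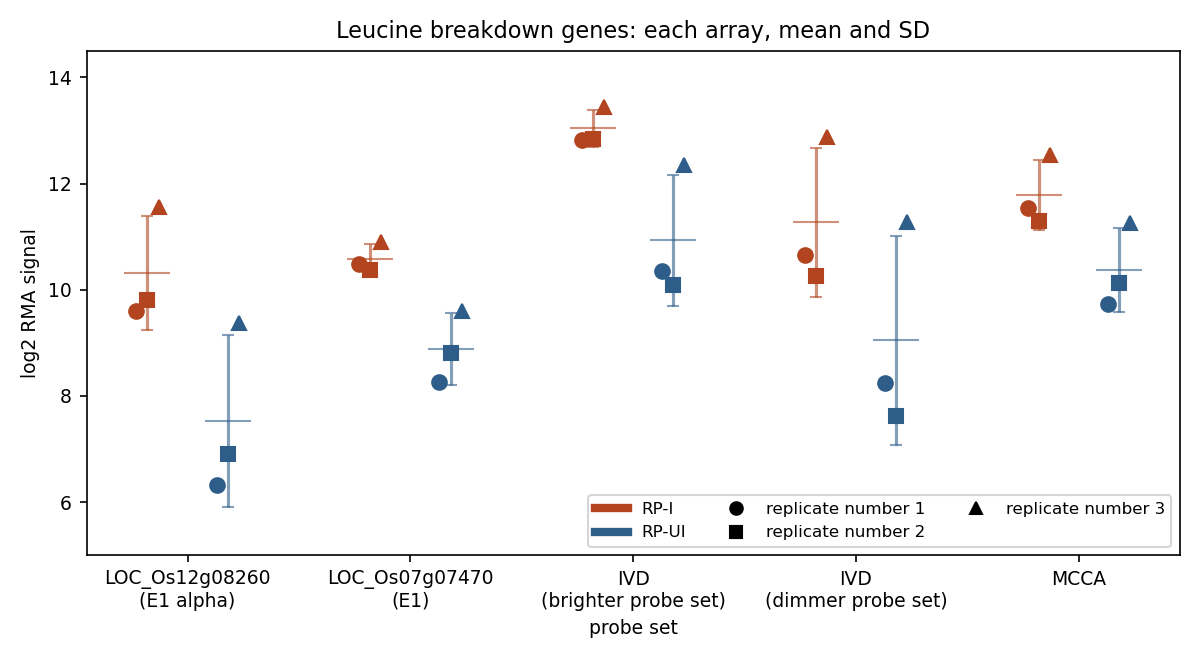
Log2 RMA signal (y axis) of the 5 probe sets of the leucine breakdown genes (x axis) in each of the 3 RP-I and 3 RP-UI arrays, with a horizontal line at the group mean and a bar of 1 SD. In every probe set the triangle of replicate number 3 is the highest of its group, and only in the dimmer IVD probe set does an RP-UI array (11.28) reach above RP-I arrays (10.66 and 10.27).

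LOC_Os12g08260, the branched-chain E1 alpha candidate, had the widest difference of the 4 genes. Its log2 signal was 9.59, 9.80 and 11.55 in RP-I 1, 2 and 3, against 6.32, 6.90 and 9.37 in RP-UI 1, 2 and 3. RP-I 3 and RP-UI 3 were each well above the other arrays of their group, and the groups stayed apart by only 0.22, between RP-I 1 and RP-UI 3. The means were 10.31 ± 1.08 in RP-I and 7.53 ± 1.62 in RP-UI (SD, n = 3 each). The difference was 2.78 (standard error 0.90, or 0.23 with the replicate block), a 6.89-fold higher signal in RP-I, which ranked 63 among the 51532 probe sets kept in order of RP-I minus RP-UI. Without both arrays numbered 3 it was 3.08.

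LOC_Os07g07470, the other dehydrogenase locus, had the most even signals. It gave 10.48, 10.38 and 10.90 in RP-I 1, 2 and 3, against 8.26, 8.81 and 9.59 in RP-UI 1, 2 and 3. The RP-I arrays lay close together and the groups did not overlap, with 0.78 between RP-I 2 and RP-UI 3. The means were 10.59 ± 0.28 in RP-I and 8.89 ± 0.67 in RP-UI (SD, n = 3 each). They differed by 1.70 (standard error 0.35, or 0.21 with the block), 3.25-fold, and by 1.90 without both arrays numbered 3.

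IVD carries out the first step that leucine does not share with valine. Its brighter probe set, whose design lets it bind transcripts of more than 1 gene, gave 12.83, 12.84 and 13.45 in RP-I 1, 2 and 3, against 10.36, 10.09 and 12.35 in RP-UI 1, 2 and 3. RP-I 1 and RP-I 2 were nearly equal, RP-UI 3 stood well above the other RP-UI arrays, and the groups did not overlap (gap 0.48). The means were 13.04 ± 0.36 in RP-I and 10.93 ± 1.23 in RP-UI (SD, n = 3 each), a difference of 2.11 (standard error 0.60, or 0.34 with the block), 4.30-fold. Without both arrays numbered 3 the difference was 2.61.

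The dimmer IVD probe set is not in the study's sheets and came in by the gene's symbol. It gave 10.66, 10.27 and 12.88 in RP-I 1, 2 and 3, against 8.24, 7.62 and 11.28 in RP-UI 1, 2 and 3. Here the groups overlapped, since RP-UI 3 was above RP-I 1 and RP-I 2. The means were 11.27 ± 1.41 in RP-I and 9.05 ± 1.96 in RP-UI (SD, n = 3 each). They differed by 2.22, close to the 2.11 of the brighter probe set, with a standard error of 1.11 that shrank to 0.23 with the block. Without both arrays numbered 3 the difference was 2.54 and the groups did not overlap.

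A further probe set is given in the study's sheet for IVD together with a neighbouring locus, LOC_Os05g03460, whose transcripts it may also bind. The annotation names no gene for it, so it is not counted as an IVD probe set. It gave 8.83, 8.69 and 9.25 in RP-I 1, 2 and 3, against 6.58, 6.50 and 7.61 in RP-UI 1, 2 and 3. The groups lay 1.08 apart and the difference was 2.02 (standard error 0.33).

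MCCA, the biotin-carrying alpha subunit of the carboxylase that follows IVD, had the narrowest difference of the 4 genes. It gave 11.53, 11.29 and 12.53 in RP-I 1, 2 and 3, against 9.74, 10.12 and 11.25 in RP-UI 1, 2 and 3. RP-I 2 and RP-UI 3 almost met (gap 0.04). The means were 11.79 ± 0.66 in RP-I and 10.37 ± 0.79 in RP-UI (SD, n = 3 each). They differed by 1.41 (standard error 0.48, or 0.17 with the block), 2.66-fold, and by 1.48 without both arrays numbered 3.

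By the study's thresholds MCCA, with its 2.66-fold difference, was the member nearest to the limit from inside. The dimmer IVD probe set passed the 2-fold limit but not the limit on the unadjusted p, and was the only one outside. The study listed the probe sets inside at these same limits on these arrays, so their passing is no result.

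Set in pairs by replicate number, RP-I was above RP-UI in 15 of 15 comparisons. These are 3 pairs for each of 5 probe sets that varied alike. The genes were chosen on this contrast, so the shared direction is no result. For LOC_Os12g08260 the differences were 3.27, 2.90 and 2.18 for numbers 1, 2 and 3, and for LOC_Os07g07470 they were 2.23, 1.57 and 1.31. For IVD they were 2.47, 2.75 and 1.10 in the brighter probe set and 2.42, 2.65 and 1.60 in the dimmer one. Number 3 had the smallest difference in these 4 probe sets. MCCA was the exception, with 1.79, 1.17 and 1.28 for numbers 1, 2 and 3. The labels do not say that a number marks a shared batch, day or tray position, so the numbers are pairs only by the likeness of the arrays.

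**Figure D2:**
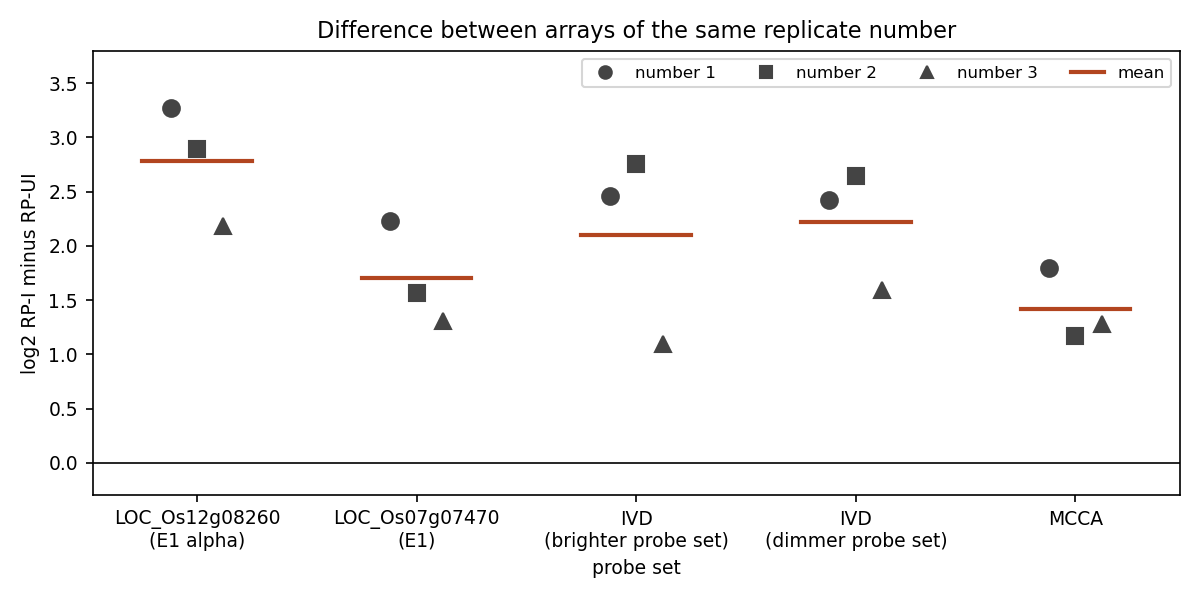
Log2 RP-I minus RP-UI between arrays of the same replicate number (y axis) for the 5 probe sets of the leucine breakdown genes (x axis), with the mean of the 3 differences as a line. All 15 points lie above 0, in genes chosen on this contrast, and number 3 is the lowest except in MCCA.

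Within the groups, the level of the leucine genes on the arrays numbered 3 was as wide a contrast as that between the groups for some probe sets. RP-I 3 exceeded the mean of RP-I 1 and RP-I 2 by 1.86 for LOC_Os12g08260, 0.47 for LOC_Os07g07470, 0.62 and 2.42 for the brighter and dimmer IVD probe sets, and 1.12 for MCCA. RP-UI 3 exceeded the mean of RP-UI 1 and RP-UI 2 by 2.76 for LOC_Os12g08260, 1.06 for LOC_Os07g07470, 2.12 and 3.36 for IVD, and 1.32 for MCCA. The excess of number 3 was wider in RP-UI than in RP-I for all 5 probe sets, which was not tested. Over all probe sets kept, the median of the same quantity was -0.01 in RP-I and -0.05 in RP-UI. An excess of 0.5 or more in RP-I was found in 4 of the 5 probe sets and in 15.8% of all probe sets kept. An excess of 1 or more in RP-UI was found in 5 of the 5 probe sets and in 5.63% of all probe sets kept. The 2 limits differ between the groups and were not planned. The lowest excess of the 5 probe sets, 0.47 in RP-I and 1.06 in RP-UI, lies close to each limit. These shares are therefore given for scale only. Number 3 was the highest array of both groups in 5 of the 5, against 23.0% of all probe sets kept.

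**Figure D3:**
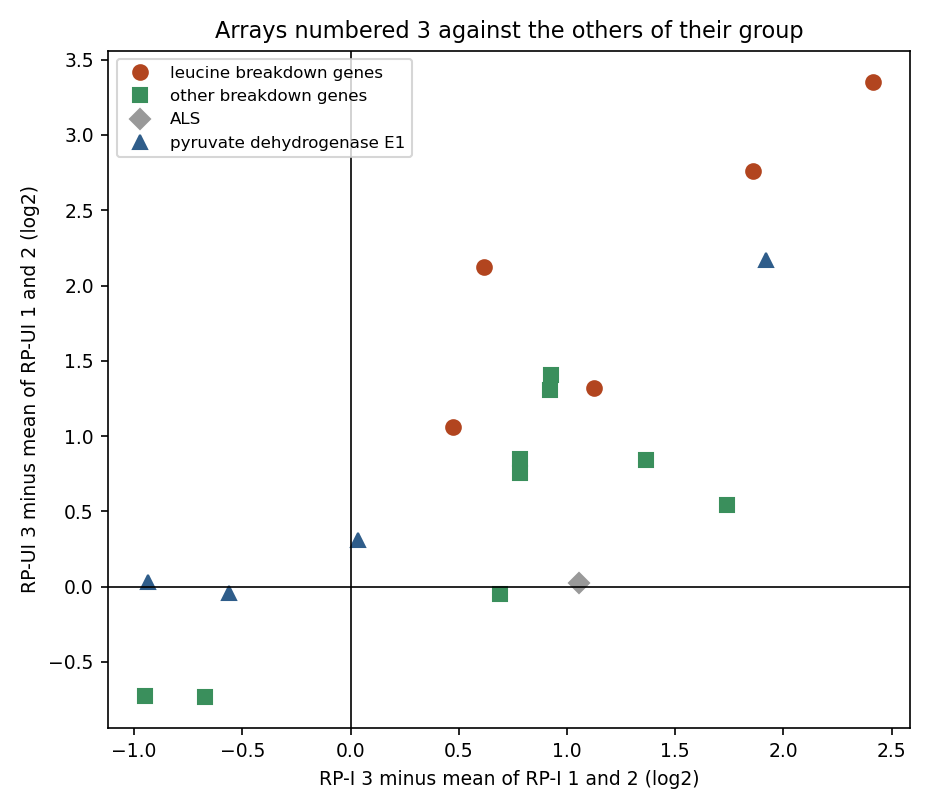
Log2 excess of RP-I 3 over the mean of RP-I 1 and 2 (x axis) against that of RP-UI 3 over the mean of RP-UI 1 and 2 (y axis), 1 point for each probe set of the leucine breakdown genes, other breakdown genes, ALS and pyruvate dehydrogenase E1 genes. The leucine breakdown probe sets lie at 0.47 to 2.42 on the x axis and 1.06 to 3.36 on the y axis.

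The signals of the 4 genes varied alike over the 6 arrays. Between the 4 genes, each by its probe set of highest signal, Pearson's r was 0.946 to 0.991 in 6 pairs, and with the dimmer IVD probe set included it was 0.853 to 0.991. MCCA and LOC_Os12g08260 were the closest pair, and LOC_Os07g07470 and the dimmer IVD probe set the least close. These are descriptions over 6 points that share the 2 groups, the replicate numbers and the normalization. The mean profile of the 4 genes, each centred on its own mean, was 0.68, 0.65 and 1.68 in RP-I 1, 2 and 3, against -1.76, -1.45 and 0.21 in RP-UI 1, 2 and 3.

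A list of other genes of branched-chain breakdown, or tied to it, held 7 genes with 9 probe sets. Of these genes, 3 came from the study's sheets and 4 by symbol. The list is wider than the breakdown route. It holds D2HGDH, taken in because it gives electrons to ETF, and the aminotransferase LOC_Os03g01600, which the study's sheet places with synthesis. The annotation holds no product names, so E2, E3, the hydratase, the lyase and the valine enzymes were not analysed here. The median difference of the 9 was 0.73, against 0.01 over all probe sets kept, with 7 higher and 2 lower means in RP-I. At an adjusted p under 0.05 in limma's fit 0 of the 9 were called, and 6 with the replicate block (5 higher and 1 lower). The block's background over all probe sets kept was 8.5% called in either direction. Neither the median nor these counts can be read against the background, since the 3 probe sets from the study's sheets were picked on this contrast and make up 3 of the 6 block calls. The 6 probe sets found by symbol had a median of 0.67.

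The genes of the study's sheets were picked from these same arrays and give no independent evidence. LOC_Os03g01600, a branched-chain aminotransferase that the sheet places with synthesis, ran the other way from the leucine genes. It gave 7.63, 7.07 and 6.40 in RP-I 1, 2 and 3, against 8.23, 8.44 and 7.61 in RP-UI 1, 2 and 3, a difference of -1.06 (standard error 0.36). RP-I 1 and RP-UI 3 overlapped narrowly, and number 3 was the lowest array of both groups, where it was the highest for the 4 leucine genes. LOC_Os08g32850 is binned with leucine degradation under the product name propionyl-CoA carboxylase beta chain. It gave 10.57, 10.70 and 11.42 in RP-I 1, 2 and 3, against 9.40, 9.40 and 10.25 in RP-UI 1, 2 and 3, with no overlap and a difference of 1.22 (standard error 0.33). LOC_Os03g19680, a 3-hydroxybutyryl-CoA dehydratase, gave 9.68, 9.81 and 10.67 in RP-I 1, 2 and 3, against 8.21, 8.34 and 9.58 in RP-UI 1, 2 and 3. Its groups did not overlap and differed by 1.34 (standard error 0.44).

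Beyond the list, LOC_Os01g02020 is an acetyl-CoA acetyltransferase of the study's sheets that was chosen here after its values were seen. It gave 11.88, 11.78 and 12.53 in RP-I 1, 2 and 3, against 9.67, 10.07 and 11.62 in RP-UI 1, 2 and 3. The groups did not overlap, the difference was 1.61 (standard error 0.52), and r with the leucine profile was 0.995.

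The electron acceptors of IVD were found by symbol. ETF is the soluble carrier of 2 subunits, ETFA and ETFB, and ETF-QO passes the electrons on to ubiquinone. The main ETFA probe set gave 11.96, 11.74 and 12.78 in RP-I 1, 2 and 3, against 10.18, 9.84 and 11.42 in RP-UI 1, 2 and 3. The groups did not overlap. The difference was 1.68 (standard error 0.47), which did not pass in limma's fit (adjusted p = 0.164) and passed with the replicate block (adjusted p = 0.0158). The ETF-QO probe set is of a design in which some probes may bind other transcripts. It gave 9.42, 9.20 and 10.67 in RP-I 1, 2 and 3, against 8.07, 8.14 and 8.95 in RP-UI 1, 2 and 3. It had no overlap and a difference of 1.38 (standard error 0.44, limma's adjusted p = 0.218, or 0.0194 with the block). ETFB gave 8.76, 8.51 and 9.42 in RP-I 1, 2 and 3, against 7.96, 7.86 and 8.66 in RP-UI 1, 2 and 3. RP-UI 3 was above RP-I 2, and the difference was 0.73 (standard error 0.32, limma's adjusted p = 0.375, or 0.0315 with the block). Without both arrays numbered 3 the adjusted p was 0.0173 for the main ETFA probe set and 0.0258 for ETF-QO.

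A dimmer ETFA probe set, with 5.23, 5.30 and 4.60 in RP-I 1, 2 and 3 and 5.45, 5.69 and 4.84 in RP-UI 1, 2 and 3, did not share the direction of the main one. Its difference was -0.28 (standard error 0.29, limma's adjusted p = 0.811). D2HGDH, a D-2-hydroxyglutarate dehydrogenase that in Arabidopsis also gives electrons to ETF, had differences of 0.57 (standard error 0.22, limma's adjusted p = 0.307) and 0.61 (standard error 0.50, limma's adjusted p = 0.732) in its 2 probe sets. RP-I 3 carried much of both, since without it they were 0.34 and 0.03, and without both arrays numbered 3 they were 0.32 and 0.21. Neither passed with the block. Of the 6 probe sets found by symbol, 0 passed in limma's fit, where 0.563% of all probe sets kept passed in either direction. Before adjustment 3 reached p of 0.05 or less (14.2% of all probe sets kept did so in either direction). With the block 3 passed, against 8.5% of all probe sets kept in either direction.

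The opposite pathway makes leucine, valine and isoleucine in the plastid. Only ALS (acetolactate synthase, the first shared step) was found by symbol with a probe set. Without product names in the annotation, the other synthesis genes were not analysed, so ALS does not stand for the pathway. LOC_Os03g01600, which the study's sheet places with synthesis, is given above. ALS gave 10.78, 10.53 and 11.71 in RP-I 1, 2 and 3, against 10.74, 11.01 and 10.90 in RP-UI 1, 2 and 3. The groups overlapped, and the difference was 0.12 (standard error 0.31, limma's adjusted p = 0.951). Its direction turned without RP-I 3 (-0.23) and without both arrays numbered 3 (-0.22).

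The E1 subunits of pyruvate dehydrogenase, relatives of the branched-chain E1, were set beside the 2 dehydrogenase loci because of the product name of LOC_Os12g08260. PDHE1-A on chromosome 6 (LOC4340640), which is also in the study's sheets, gave 7.09, 8.17 and 9.55 in RP-I 1, 2 and 3, against 5.25, 5.33 and 7.46 in RP-UI 1, 2 and 3. RP-UI 3 was above RP-I 1, and the difference was 2.26 (standard error 0.81, limma's adjusted p = 0.272, or 0.0164 with the block). The study listed this gene on these same arrays, so its p-values, in any setting, give no independent evidence. The other PDHE1-A gene, on chromosome 2, differed by -0.08 (standard error 0.28, limma's adjusted p = 0.966). Its direction turned without RP-I 3 (0.23) and without both arrays numbered 3 (0.24). PDHE1-B differed by 0.78 on chromosome 8 (standard error 0.20, limma's adjusted p = 0.143, or 0.0564 with the block) and by 0.14 on chromosome 9 (standard error 0.15, limma's adjusted p = 0.813). Without both arrays numbered 3 the adjusted p was 0.0320 for PDHE1-A on chromosome 6 and 0.0478 for PDHE1-B on chromosome 8, and the difference of PDHE1-B on chromosome 9 was 0.24.

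**Figure D4:**
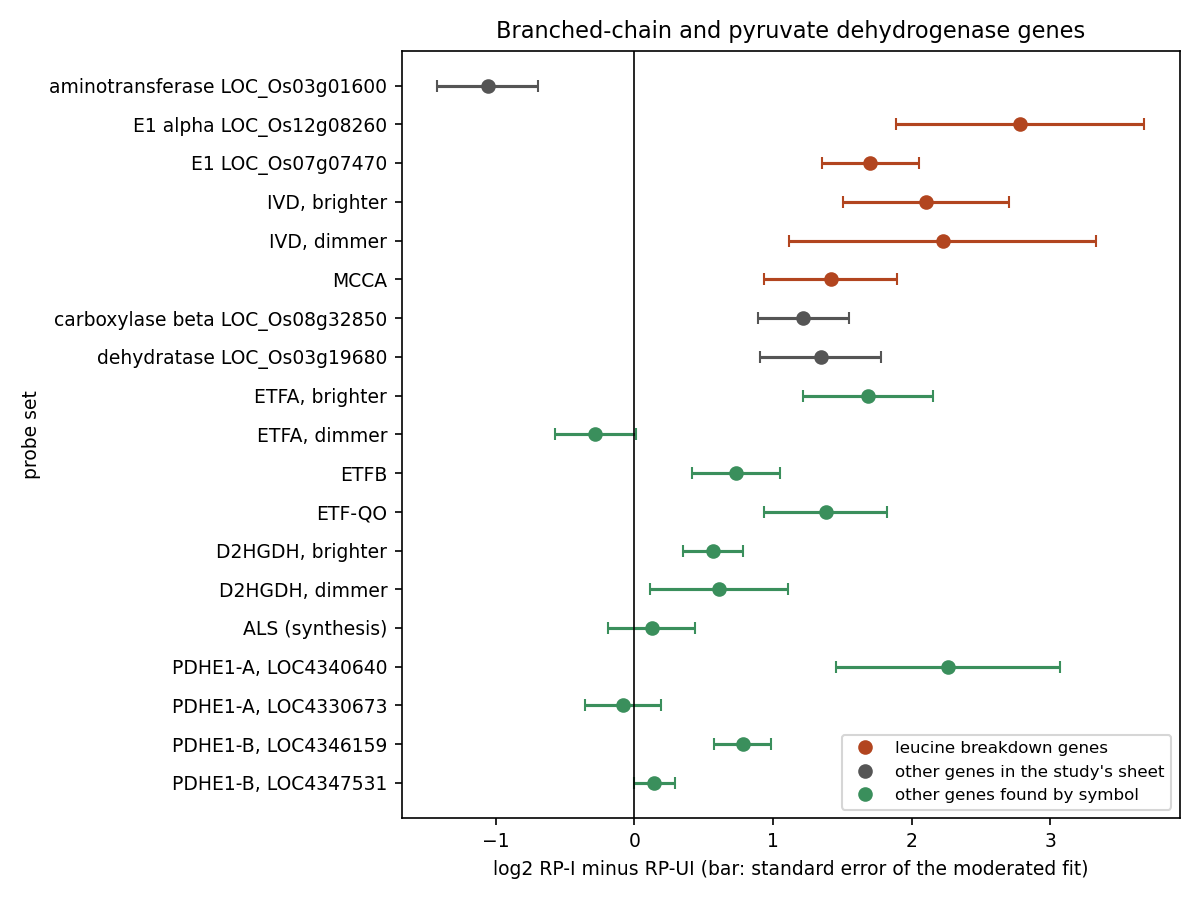
Log2 RP-I minus RP-UI (x axis, bars are the standard error of the moderated fit) for each probe set of the leucine breakdown genes, other branched-chain genes and pyruvate dehydrogenase E1 genes (y axis). The leucine breakdown probe sets lie at 1.41 to 2.78, and the aminotransferase LOC_Os03g01600 at -1.06.

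The transcripts whose pattern was most like the leucine profile were ranked by Pearson's r over the 6 arrays. Of all probe sets kept, 1581 (3.07%) had r of 0.9 or more, and 1890 had r of -0.9 or less. Among 3063 probe sets of genes with a name, the 5 closest were APG8D (ATG8D), a ubiquitin-like protein of autophagosome membranes, with r = 0.999, MYBS2, a MYB protein that binds the sugar response element of alpha-amylase promoters, with r = 0.996, XDH, xanthine dehydrogenase of purine breakdown, with r = 0.993, NAC048 (SNAC2), a stress-responsive NAC factor, with r = 0.993, and OsC3H37, a zinc finger protein, with r = 0.992. They were taken for this pattern, so no test is given.

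APG8D gave 7.51, 7.45 and 8.03 in RP-I 1, 2 and 3, against 6.28, 6.43 and 7.19 in RP-UI 1, 2 and 3. XDH gave 12.15, 12.14 and 12.75 in RP-I 1, 2 and 3, against 10.15, 10.24 and 11.50 in RP-UI 1, 2 and 3. Both had number 3 highest in each group and no overlap between groups, as the leucine genes did apart from the dimmer IVD probe set. The differences were 1.03 for APG8D, 1.44 for MYBS2, 1.72 for XDH, 0.91 for NAC048 and 1.65 for OsC3H37. With a profile of all 5 probe sets 2 of these names stayed among the 5 closest, and without both arrays numbered 3 only 1 did. Whatever the name, the 5 closest of 21715 probe sets naming 1 gene were LOC4351102 (r = 0.999), APG8D, LOC9266978 (r = 0.998), LOC4328788 (r = 0.997) and LOC4335640 (r = 0.997), and 0 of them stayed with the profile of all 5 probe sets.

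**Figure D5:**
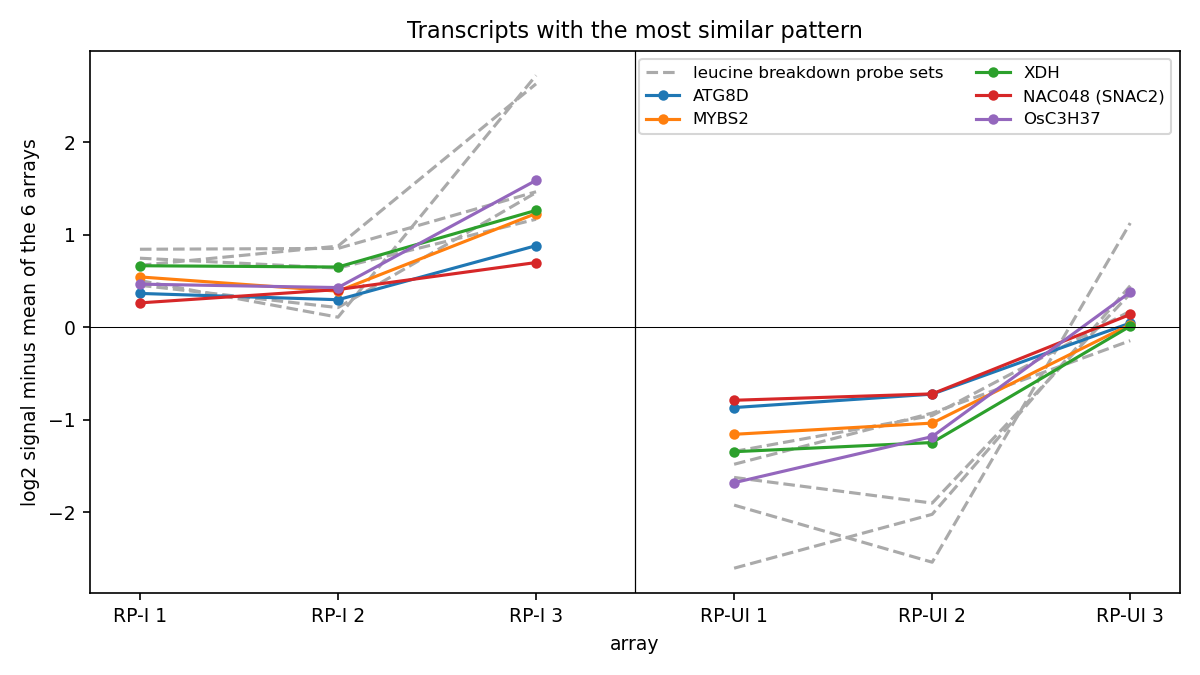
Log2 signal minus the mean of the 6 arrays (y axis) in RP-I 1 to 3 and RP-UI 1 to 3 (x axis) for the 5 probe sets of the leucine breakdown genes (dashed) and the 5 named genes of closest pattern (coloured). In all 10 lines number 3 is the highest array of each group.

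Markers of other tissue differed in the same contrast, and their part in the leucine results was not tested. Green leaf markers (CAB2R and PsbS, 3 probe sets) summed to a linear signal of 12470, 11270 and 5488 in RP-I 1, 2 and 3, against 20210, 25720 and 29350 in RP-UI 1, 2 and 3, with 3 of 3 probe sets lower and not overlapping (9.73% of all probe sets kept lay so) and 0 called in limma's fit. Markers of dividing cells (10 genes of replication licensing, PCNA, mitotic cyclins and CDKB2-1, 11 probe sets) summed to 7116, 4543 and 2108 in RP-I 1, 2 and 3, against 23740, 21520 and 18750 in RP-UI 1, 2 and 3, with 11 of 11 lower and not overlapping and 5 called lower in limma's fit (0.328% of all probe sets kept were called lower). In RP-I the array numbered 3, which had the highest leucine signals, had the lowest sums of both lists. In RP-UI it had the lowest sum of dividing-cell markers and the highest of green leaf markers. Shoot meristem KNOX markers (4 genes, 6 probe sets) summed to 1450, 1159 and 1346 in RP-I 1, 2 and 3, against 628.7, 568.6 and 759.2 in RP-UI 1, 2 and 3, with 6 of 6 means higher, 3 probe sets not overlapping and 1 called higher in limma's fit (9.12% and 0.235% of all probe sets kept).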

How the data were processed

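Total RNA of 6 tissue samples (3 RP-I, 3 RP-UI) was hybridised to the Affymetrix Rice Genome Array. The authors deposited log2 values per probe set and array, made with RMA (background correction, quantile normalization, summary per probe set). GeneSpring is named in the study's methods, and Affymetrix Expression Console with RMA in the submitters' processing notes. Tool versions in these notes were not given in the sources used here. By the labels tissue of the 3 times was pooled, and by the methods RNA. The authors' fold changes in supplementary sheets were not used, only the loci and probe sets.

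No further scaling was applied to the log2 values. Control probe sets (123) were removed, and a mean over the 6 arrays at or above the 10th percentile was required (51532 probe sets kept). RP-I minus RP-UI was fitted with limma 3.58.1 (lmFit, eBayes) in R 4.3.3, with Benjamini-Hochberg adjustment over the probe sets kept, and an adjusted p under 0.05 was called. Standard errors come from the same moderated fit. P-values weigh each difference against the moderated spread between these samples. Gene lists and summaries used Python 3.11.15, pandas 2.3.3 and numpy 2.4.6, with matplotlib 3.10.9 for figures. On simulated data for RP-I minus RP-UI (51532 probe sets, 50 changed at each size) the fit recovered 10, 37, 41 and 46 at log2 sizes of 1, 2, 3 and 4. The simulated noise was independent between arrays, with no deviation shared by arrays of the same number. These counts check the code and do not give the recovery in the real arrays.

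Arrays of the same number deviated alike from their group means, with correlations of 0.521, 0.308 and 0.624 for numbers 1, 2 and 3, so the number was also fitted as a block. All 3 values would rise if only the arrays numbered 3 shared a deviation, and between numbers 1 and 2 the highest correlation across numbers was 0.295. The source of the pairing is not stated.

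All probe sets of the 4 genes, the breakdown and synthesis lists, the pyruvate dehydrogenase E1 genes and the 5 closest patterns were named by rule. Members and lists were chosen with earlier results of these data known. Alternatives were the replicate block, filters, centring, another quantile normalization, a variance trend, single arrays left out and, added later, both arrays numbered 3 left out. Planned counts of promoter motifs were not run, as no sequence was used here.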

Additional observations from a re-analysis of the deposited data

How the results depend on the processing

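The replicate block leaves the differences of the leucine breakdown probe sets as they are by construction, and centring shifts all probe sets alike, so neither bears on them. Leaving out single arrays gave 2.17 to 3.70 for LOC_Os12g08260, 1.39 to 2.05 for LOC_Os07g07470, 1.68 to 2.81 and 1.42 to 3.34 for the brighter and dimmer IVD probe sets, and 1.04 to 1.86 for MCCA. Calls over all probe sets kept, 290 in limma's fit (121 higher, 169 lower), depended on the setting: 4379 with the replicate block (2092 higher, 2287 lower), 2466 without both arrays numbered 3 (1426 higher, 1040 lower), 2865 at the thresholds of the methods (1373 higher, 1492 lower), 126 with arrays centred on their median (45 higher, 81 lower), 87 with a prior variance trend (21 higher, 66 lower), 402 after another quantile normalization (193 higher, 209 lower), and 0 to 280 without single arrays, where only leaving out RP-I 3 gave calls. Calls in the breakdown list, 0 in limma's fit, were 6 with the replicate block (3 of them picked by the study on this contrast) and 0 with any single array left out. Without both arrays numbered 3 they were 4, beside 2466 of the 51532 probe sets kept. Of these 4, the main ETFA probe set and ETF-QO were found by symbol, and the others were picked by the study on this contrast. The block changed the call of ETFA (main probe set), ETFB and ETF-QO among the genes tested here. It also changed that of PDHE1-A on chromosome 6, which the study had listed on this contrast. The cause of these changes was not tested. Counts of promoter motifs were not run. The 3 arrays of each group limit the precision of every value.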
